A study of Mus musculus with 24 samples.

Results

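Kidney RNA of Pld4 knockout mice (KO, labelled PLD4-/-) at day 10 of unilateral ureteral obstruction (UUO) was set against KO kidney RNA at day 5 of the same operation, 4 libraries a day. These 8 libraries, picked by the genotype and day in their labels, are 8 of 24 in the series, and they were described across all 15080 genes that passed a low-count filter, of 23955 in the file. The other 16 libraries, 4 each, are wild type (WT, PLD4+/+) at day 10 and day 5 of UUO, KO at day 0 and WT at day 0, where day 0 is the untreated baseline. All 8 KO libraries share the genotype and the obstruction, so the comparison holds no unobstructed tissue, and the day is the only labelled difference. The labels used here give no strain, age, sex, allele or surgery batch, nor which part of Pld4 was deleted. They do not say that replicates are separate animals, so the p-values measure the spread between these samples. That spread was above counting error: the chi-square per gene between libraries of a KO group was 15.8 to 52.0, where counting error alone would leave far less. It may still be technical in part, and its source was not tested.

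UUO ties off one ureter, and the kidney behind it loses tubular epithelium, fills with leukocytes and lays down collagen as the obstruction goes on. Pld4 is a 5' exonuclease of endosomes and lysosomes that digests single-stranded nucleic acid and so limits the ligands of endosomal Toll-like receptors, which can induce interferon. Type I interferon activates transcription factors that bind a promoter element called the ISRE and switch on antiviral genes such as Oas, Mx and Ifit.

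Total counts ran from 13899479 to 15799671 in the day 10 libraries and from 15243547 to 17451024 in the day 5 libraries, against 9800888 to 22542866 over the series. Levels are given as CPM, counts per 1000000 of the scaled library total. Kidney markers were abundant: the proximal tubule phosphate transporter Slc34a1 had 722 to 1961 CPM at day 10 and 1604 to 3119 CPM at day 5. A library of each day lay between the groups. On the first principal component of the 8 libraries, which held 43.1% of the variance, day 10 replicate 1 stood at 1.38 and the other day 10 libraries at 15.7 to 38.9. Day 5 replicate 1 stood at 9.59 and the other day 5 libraries at -37.9 to -26.6. Day 5 replicate 1 had 1874 CPM of the nuclear RNA Neat1, against 368 to 524 CPM in the other day 5 libraries. The male-linked gene Ddx3y was at 58.0 to 83.3 CPM in all 8 libraries and the female-specific Xist at 2 to 8 counts.

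Pld4 itself was at 24.3, 36.1, 38.6 and 50.3 CPM in KO day 10 libraries 1 to 4, against 32.6, 18.9, 13.4 and 16.4 CPM in KO day 5 libraries 1 to 4. The groups overlapped through day 5 replicate 1. The log2 fold change was 0.88 ± 0.27 (SE) and missed the threshold (adjusted p = 0.338, edgeR's quasi-likelihood test with Benjamini-Hochberg adjustment, the test behind every adjusted p here). WT kidneys held 54.6 to 117 CPM at day 10 and 46.6 to 50.9 CPM at day 5, above the KO range on both days. At day 0, KO kidneys held 6.70 to 12.6 CPM and WT kidneys 5.10 to 8.25 CPM, so the KO libraries were not below WT there, against the label. KO below means the libraries so labelled. Whether these counts fall in the deleted part of the gene cannot be read from a count per gene.

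Only 3 genes passed an adjusted p of 0.05, all higher at day 10: Calcr, Ccr7 and Il12b, 0.0199% of the genes tested. Calcr encodes the calcitonin receptor, a G protein-coupled receptor. It was at 4.06, 3.60, 3.71 and 3.76 CPM at day 10 and at 0.991, 0.607, 0.413 and 0.679 CPM at day 5. Every day 10 library was at least at 3.60 CPM and no day 5 library reached 1 CPM. Calcr rose by 2.48 ± 0.35 on the log2 scale (adjusted p = 0.0063), from 265 counts summed over the day 10 libraries and 47 over the day 5 libraries.

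Ccr7 is the chemokine receptor that guides mature dendritic cells and naive T cells into lymphoid tissue. Ccr7 was at 5.35, 6.61, 6.13 and 9.51 CPM at day 10 and at 3.03, 1.05, 1.42 and 1.47 CPM at day 5. The groups did not overlap, and the day 5 library nearest to day 10 was replicate 1. Ccr7 rose by 1.98 ± 0.29 (adjusted p = 0.0063). Il12b encodes the p40 chain shared by interleukins 12 and 23, made mainly by activated dendritic cells and macrophages. Il12b was at 2.53, 2.48, 2.04 and 5.29 CPM at day 10 and at 0.350, 0.607, 0.472 and 0.283 CPM at day 5. The groups were apart and day 10 replicate 4 was above its 3 fellows. Il12b rose by 2.82 ± 0.43 (adjusted p = 0.00649), and without day 10 replicate 4 by 2.43 (adjusted p = 0.0276). In bulk tissue a change in the number of cells and a change in RNA per cell cannot be told apart.

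The day 0 kidneys of the same genotype differed among these genes. Calcr had 0.457 to 1.48 CPM at day 0, 0.413 to 0.991 CPM at day 5 and 3.60 to 4.06 CPM at day 10. Il12b had 1.31 to 3.18 CPM at day 0, 0.283 to 0.607 CPM at day 5 and 2.04 to 5.29 CPM at day 10, so its day 5 values were below both other times, and the day 0 and day 10 ranges overlapped. Ccr7 had 2.34 to 4.04 CPM at day 0, and the day 5 range of 1.05 to 3.03 CPM overlapped it.

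**Figure D1:**
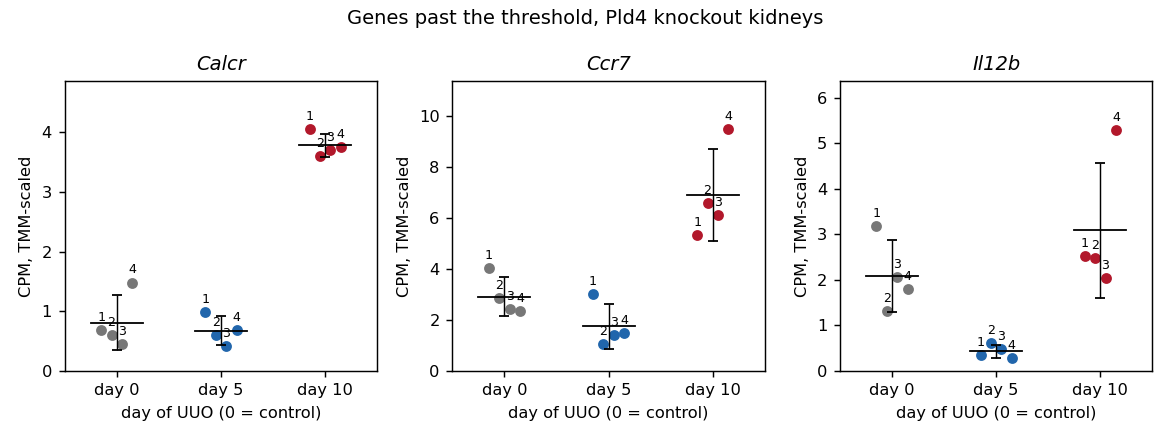
CPM (TMM-scaled, linear axes from 0) of Calcr, Ccr7 and Il12b in each KO library at day 0, 5 and 10; numbers are replicates, lines the group means and bars the SD (n = 4). Every day 10 point is above every day 5 point in all 3 panels, while Il12b at day 0 (1.31 to 3.18 CPM) is above day 5.

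These calls were few and depended on the libraries. Leaving out day 5 replicate 4 ended all 3, with adjusted p of 0.0577 for Calcr and Ccr7 and 0.0595 for Il12b, and fold changes of 2.47, 1.90 and 2.67 on the log2 scale. Leaving out day 10 replicates 1 and 2 together left Calcr at 2.46 (adjusted p = 0.0606), leaving out day 5 replicate 1 left Il12b at 2.74 (adjusted p = 0.0507), and a fit of the 8 KO UUO libraries alone left Ccr7 at 2.004 (adjusted p = 0.053). In the other direction, 72 genes passed with DESeq2 (61 higher, 11 lower), 54 when WT day 10 replicates 2 and 3 were left out of the fit, whose spread all groups share, and 53 in a fit of the 12 KO libraries alone. Those 2 WT libraries were known from earlier results to stand apart. Their mean log2 CPM of neutrophil genes was 8.13 and 8.38, against 2.07 and 1.87 in WT day 10 replicates 1 and 4. Leaving out such libraries tends to narrow the shared spread, so more calls were built in. In the reported fit, at an unadjusted p under 0.05, 921 genes stood higher (6.11%) and 693 lower (4.60%). The 4 day 10 libraries were all above the 4 day 5 libraries for 657 genes (4.36%) and all below for 579 (3.84%). The median log2 fold change over all genes was -0.02, with a median SE of 0.208, and 47.4% of genes were above 0 and 52.6% below.

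The type I interferon response genes lay above 0 together: 30 of 30 tested, with a median log2 fold change of 0.82, though none passed the adjusted threshold (lowest adjusted p = 0.207). Of the 30, 20 had an unadjusted p under 0.05 with a higher day 10 value, and 19 had groups that did not overlap. Over all genes tested, the shares in that direction were 6.11% and 4.36%. Irf7, the transcription factor that amplifies type I interferon production, was at 135, 121, 164 and 268 CPM at day 10 and at 82.7, 64.2, 50.4 and 52.2 CPM at day 5. The groups were apart, with a log2 fold change of 1.46 ± 0.36 (adjusted p = 0.207). Xaf1, an interferon-induced gene linked to apoptosis, was at 31.6, 27.4, 40.1 and 41.6 CPM at day 10 and at 23.3, 14.5, 14.6 and 11.0 CPM at day 5 (1.15 ± 0.30). Mx2, an interferon-induced GTPase, was at 5.88 to 14.1 CPM at day 10 and 2.09 to 5.54 CPM at day 5 (1.30 ± 0.37). Oas3, which makes the 2'-5' oligoadenylate that activates RNase L, was at 10.1, 10.7, 14.5 and 24.1 CPM at day 10 and at 7.70, 3.42, 4.84 and 3.90 CPM at day 5 (1.58 ± 0.60).

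Replicate 4 was the highest of the day 10 libraries for Irf7, Xaf1, Mx2 and Oas3, and replicate 1 the highest of the day 5 libraries. The mean log2 CPM of the list was 5.48 to 6.20 at day 10 and 4.57 to 5.27 at day 5, against 4.55 to 5.11 in KO kidneys at day 0, so the day 5 range overlapped the baseline range. In every other setting tried, all 30 genes stayed above 0, with medians of 0.60 to 1.09. Without WT day 10 replicates 2 and 3 in the fit, 8 members passed the adjusted threshold: Dhx58, Irf7, Oas1a, Oas3, Oasl2, Rtp4, Usp18 and Xaf1. With DESeq2 there were 2, Irf7 and Xaf1. Both fits share data with the reported one and are no independent support.

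**Figure D2:**
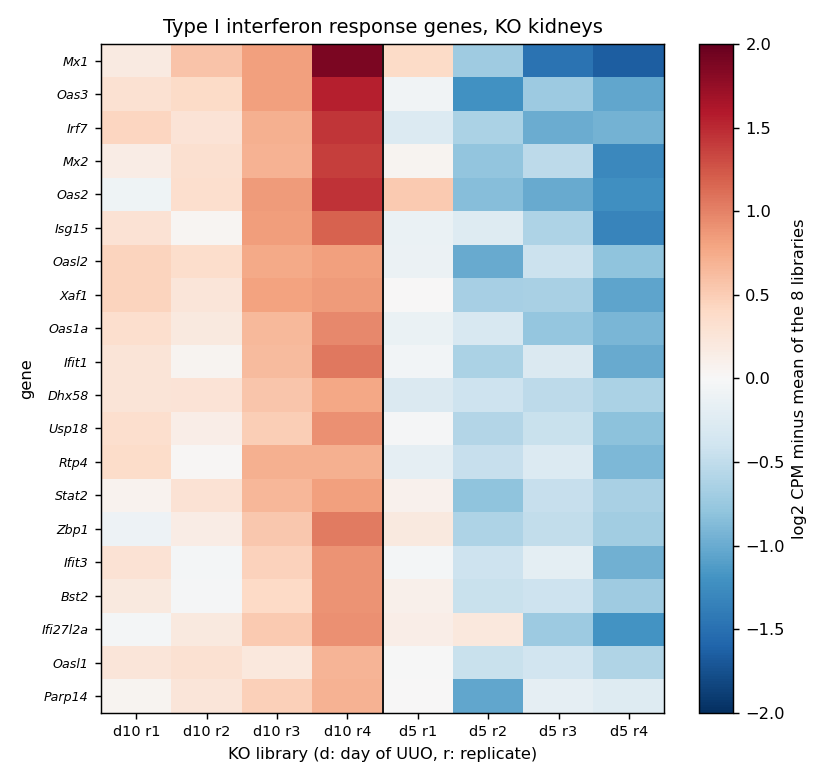
Log2 CPM of the 20 type I interferon response genes with the largest log2 fold change in the 4 KO day 10 libraries (left) and the 4 KO day 5 libraries (right), each gene relative to its mean over the 8 libraries, with genes ordered by log2 fold change. Red cells are above the gene's mean and blue below; day 10 replicate 4 is the reddest column, and day 5 replicate 1 is the least blue of its group for most of the upper genes.

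Promoters of 4 of these genes are shown, picked by lowest unadjusted p among those with groups apart and an ISRE-like run in the window. The promoter of Il12b, a gene past the threshold, is added. The windows are RefSeq sequence of build GRCm38.p6, from 250 bases before to 50 bases after the gene start, written on the gene's strand. Capitals mark each match on either strand to an ISRE-like motif, GAAA, any 2 bases and GAAA again, which reads TTTC, any 2 bases and TTTC from the opposite strand, and overlapping matches run together. The regions are chr5:120907476-120907775 (minus strand) for Oas1a, chr4:40239776-40240075 (minus) for Ddx58, chr4:156200769-156201068 (minus) for Isg15, chr19:34640639-34640938 (plus) for Ifit1 and chr11:44399813-44400112 (plus) for Il12b.
Oas1a: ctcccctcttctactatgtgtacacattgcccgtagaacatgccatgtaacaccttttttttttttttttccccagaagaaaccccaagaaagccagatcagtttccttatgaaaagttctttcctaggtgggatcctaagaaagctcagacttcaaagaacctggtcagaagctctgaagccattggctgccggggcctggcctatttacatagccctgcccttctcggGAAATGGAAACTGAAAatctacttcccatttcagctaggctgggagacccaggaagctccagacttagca
Ddx58: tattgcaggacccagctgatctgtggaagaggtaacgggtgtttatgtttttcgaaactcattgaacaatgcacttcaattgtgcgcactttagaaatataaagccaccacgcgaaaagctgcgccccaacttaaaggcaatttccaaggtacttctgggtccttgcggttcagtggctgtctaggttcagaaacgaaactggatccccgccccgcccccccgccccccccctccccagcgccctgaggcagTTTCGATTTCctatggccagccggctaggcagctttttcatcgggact
Isg15: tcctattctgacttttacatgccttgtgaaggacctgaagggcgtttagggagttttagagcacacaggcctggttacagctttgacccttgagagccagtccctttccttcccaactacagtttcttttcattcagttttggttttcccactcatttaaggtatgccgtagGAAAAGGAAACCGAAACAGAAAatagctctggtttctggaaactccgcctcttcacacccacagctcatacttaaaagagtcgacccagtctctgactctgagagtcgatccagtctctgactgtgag
Ifit1: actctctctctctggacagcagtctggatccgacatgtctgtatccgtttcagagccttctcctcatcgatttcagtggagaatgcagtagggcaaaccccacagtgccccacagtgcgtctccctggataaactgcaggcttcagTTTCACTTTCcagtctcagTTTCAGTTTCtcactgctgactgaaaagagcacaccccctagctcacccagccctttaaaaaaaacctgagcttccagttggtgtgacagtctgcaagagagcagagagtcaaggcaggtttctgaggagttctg
Il12b: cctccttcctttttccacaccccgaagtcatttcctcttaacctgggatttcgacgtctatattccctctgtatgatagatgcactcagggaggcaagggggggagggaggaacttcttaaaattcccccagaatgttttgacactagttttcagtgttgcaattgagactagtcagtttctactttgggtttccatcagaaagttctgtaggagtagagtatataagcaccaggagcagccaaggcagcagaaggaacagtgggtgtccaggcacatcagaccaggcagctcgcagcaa

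Isg15 had 3 overlapping matches, Oas1a 2 overlapping matches, Ifit1 2 separate matches on the opposite strand and Ddx58 a single one just after its start. Of all 32851 promoter windows in the RefSeq table, 3.44% hold the motif. Isg15, Oas1a, Ifit1 and Ddx58 were picked for holding a match, so their matches cannot be set against that share. Other listed interferon genes with groups apart and a window held no match. Windows were at hand for 20 of the 30 listed genes, under the 80% needed for a count over the list, so such a count is void and none is given. In Il12b and in both windows of Calcr these letters do not occur, which says nothing about the factors that act there, and Ccr7 was matched to no window. Isg15, a ubiquitin-like modifier, had a log2 fold change of 1.18 ± 0.42, and Ifit1, which binds foreign RNA ends, one of 1.01 ± 0.37.

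Guanylate-binding proteins and other targets of interferon gamma were above 0 in 19 of 19 tested, with a median of 0.48, but 0 of them had an unadjusted p under 0.05 and 0 had groups apart. Without day 10 replicate 4 the median was 0.25. Gbp8 was at 12.6, 24.4, 18.6 and 36.4 CPM at day 10 and at 23.6, 8.28, 7.97 and 9.22 CPM at day 5, where replicate 1 overlapped the day 10 group. Antigen presentation genes had a median of 0.24, with 14 of 18 above 0; the median was 0.097 without day 10 replicate 4 and 0.15 without day 5 replicate 3. H2-Ob, a chain of the class II modulator H2-O, was at 5.47 to 8.08 CPM at day 10 and 2.89 to 4.53 CPM at day 5 (0.80 ± 0.27). H2-Ob alone of the 18 had an unadjusted p under 0.05 or groups apart. Over all genes, 6.11% and 4.36% did so with day 10 higher.

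Genes of mature, migratory dendritic cells held 2 of the 3 calls, Ccr7 and Il12b. Of 22 tested, 21 were above 0, 9 had an unadjusted p under 0.05 and 11 had groups apart, with a median of 0.67. Among all genes tested, the last 2 shares with day 10 higher were 6.11% and 4.36%. Ccl22, a chemokine of mature dendritic cells that draws CCR4-bearing T cells, was at 5.05, 6.91, 5.70 and 5.75 CPM at day 10 and at 3.50, 1.05, 1.30 and 1.19 CPM at day 5 (1.73 ± 0.42, adjusted p = 0.186). Its day 5 replicate 1 was the library closest to day 10. Cacnb3, a calcium channel beta subunit found in migratory dendritic cells, was at 41.7 to 53.0 CPM at day 10 and 29.3 to 31.4 CPM at day 5 (0.63 ± 0.14, adjusted p = 0.154).

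Markers of dendritic cell subsets were above 0 in 17 of 18, with a median of 0.57. In 9 the groups were apart, against 4.36% of all genes with day 10 above day 5. Itgax, which encodes CD11c, was at 27.2, 32.3, 29.3 and 36.2 CPM at day 10 and at 13.2, 11.7, 13.6 and 12.1 CPM at day 5. The groups did not overlap, and the log2 fold change was 1.30 ± 0.26 (adjusted p = 0.079). Flt3, the receptor for the growth factor of dendritic cells, was at 4.88 to 6.09 CPM at day 10 and 2.48 to 3.75 CPM at day 5 (0.76 ± 0.30). Clec9a, a marker of cross-presenting dendritic cells, was at 6.47 to 15.6 CPM at day 10 and overlapped the 3.28 to 7.23 CPM of day 5 (0.99 ± 0.41).

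T cell genes were above 0 in 21 of 21, with a median of 0.94. Of these, 5 had an unadjusted p under 0.05 and 9 had groups apart, against 6.11% and 4.36% of all genes. Cd8a, the co-receptor of cytotoxic T cells, was at 8.70, 12.5, 14.0 and 17.6 CPM at day 10 and at 6.82, 5.80, 4.49 and 5.77 CPM at day 5 (1.21 ± 0.37, adjusted p = 0.346). Ctla4, the inhibitory receptor of regulatory and activated T cells, was at 1.40 to 5.55 CPM at day 10 and 0 to 0.816 CPM at day 5 (3.21 ± 0.96, adjusted p = 0.334). NK and cytotoxic genes were above 0 in 16 of 16 with a median of 0.64 (0.39 without day 10 replicate 4), and B and plasma cell genes in 11 of 14 with a median of 0.57. On unfiltered log2(FPKM + 1) these 2 lists had lower medians, 0.27 with 15 of 16 above 0 and 0.24 with 13 of 14. Lymphoid tissue chemokines and cytokines were above 0 in 10 of 13, with a median of 0.48.

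Macrophage genes had a median of 0.31, 18 of 22 were above 0 and 1 had an unadjusted p under 0.05, Cx3cr1, the fractalkine receptor, at 74.1 to 96.0 CPM at day 10 and 52.6 to 77.8 CPM at day 5. A count of 1 in 22 is near the 6.11% of all genes that stood higher at that p. Neutrophil genes had a median of 0.07 over 9 tested, and the neutrophil alarmin S100a8 was at 0.647 to 1.88 CPM at day 10 and 0.453 to 1.44 CPM at day 5. Complement genes had a median of 0.11 (9 of 16 above 0) and genes of endosomal nucleic acid sensing one of 0.15 (15 of 21 above 0). The sensing median was 0.025 without day 10 replicate 4, 0.069 without day 5 replicate 1 and 0.097 without day 5 replicate 2, and the neutrophil median ran from -0.11 to 0.28 with 1 library left out.

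Chemokines and inflammatory cytokines had the highest median of the 37 lists, 1.10, with 23 of 24 above 0, 7 at an unadjusted p under 0.05 and 8 with groups apart. The all-gene shares of the last 2, with day 10 higher, were 6.11% and 4.36%. Ccl2, which recruits monocytes through CCR2, was at 43.5, 45.7, 21.6 and 30.5 CPM at day 10 and at 14.9, 12.1, 11.0 and 12.5 CPM at day 5 (1.48 ± 0.34, adjusted p = 0.153). Ccl7, a second CCR2 ligand, was at 7.11 to 9.68 CPM at day 10 and 1.64 to 4.55 CPM at day 5 (1.51 ± 0.54). Il1b was at 21.7, 34.8, 11.8 and 7.003 CPM at day 10 and at 2.27, 6.07, 2.01 and 1.70 CPM at day 5 (2.64 ± 1.04, adjusted p = 0.399).

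**Figure D3:**
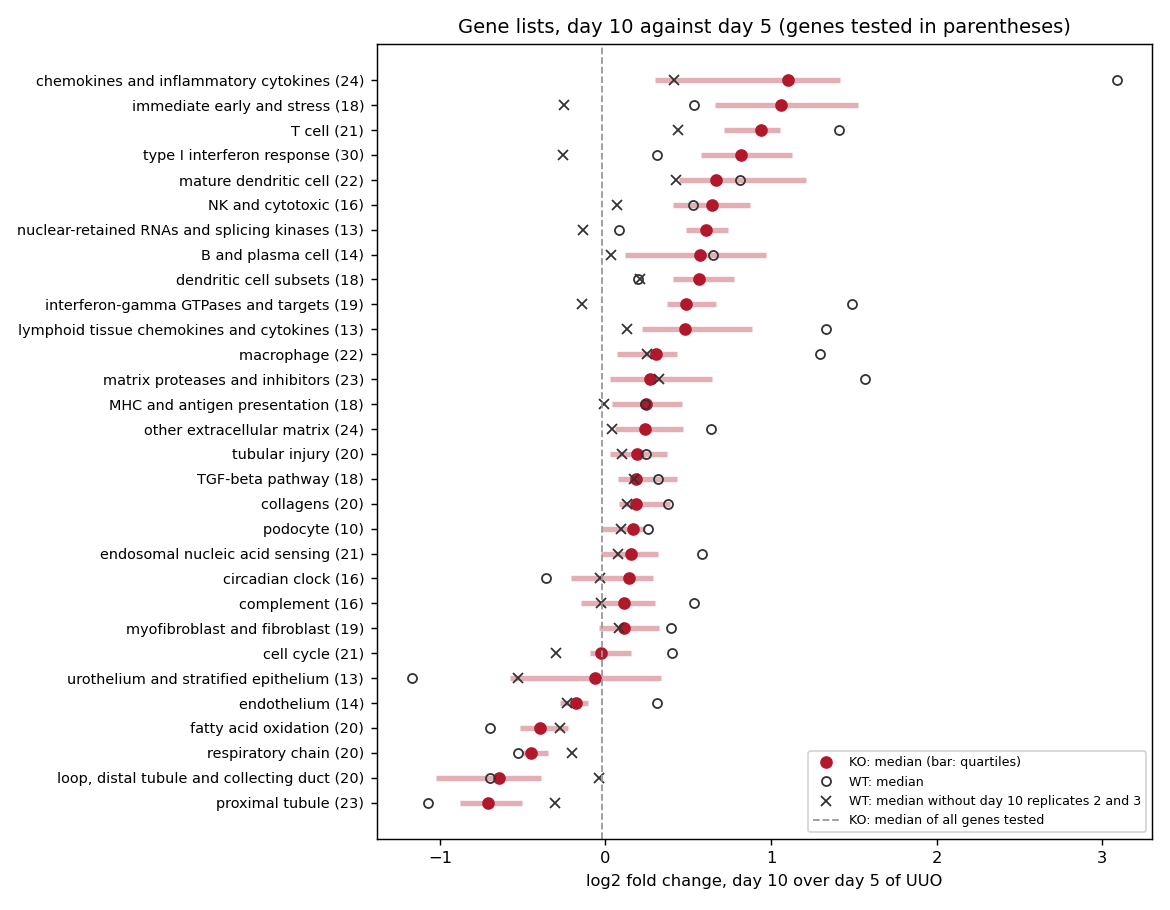
Median log2 fold change, day 10 over day 5, of each gene list in KO (red, bar from lower to upper quartile), in WT (open circle) and in WT without day 10 replicates 2 and 3 (cross); the dashed line is the KO median of all genes, -0.02. Chemokines, immediate early, T cell and type I interferon genes lie highest in KO (1.10, 1.06, 0.94 and 0.82), tubule and mitochondrial lists lowest (-0.71 to -0.40). Lists with fewer than 9 genes tested and the neutrophil list (KO 0.07, WT 6.59) are not drawn.

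Ccl2 and Il1b were highest in day 10 replicates 1 and 2, the 2 libraries in which immediate early genes were high. These genes are transcribed within minutes of a stimulus. Fos was at 178, 158, 18.6 and 9.85 CPM at day 10 and at 12.01, 8.004, 7.74 and 8.83 CPM at day 5. Nr4a1 was at 79.5, 97.3, 19.0 and 9.85 CPM at day 10 and at 11.6, 8.06, 8.33 and 7.75 CPM at day 5. In 13 of 18 immediate early and stress genes, day 10 replicates 1 and 2 were above all the other 6 libraries. The list's median was 1.06, and 13 genes had an unadjusted p under 0.05, all higher, against 6.11% of all genes. DESeq2 called 6 of the list past the adjusted threshold: Egr1, Fos, Ier2, Junb, Nr4a1 and Zfp36. Without day 10 replicates 1 and 2 the list's median was 0.30, with 1 gene at an unadjusted p under 0.05. Over all genes that fit had 949 at such a p, against 1614 in the reported fit. The 2 libraries were picked for high values of these genes, so a fall was fixed in advance. Rgs1, a regulator of G protein signalling in leukocytes, followed the same libraries, with 20.4, 39.6, 3.07 and 5.92 CPM at day 10 and 2.86, 1.82, 2.13 and 1.53 CPM at day 5 (3.04 ± 0.66, adjusted p = 0.115). Without replicates 1 and 2, Rgs1 stood at 1.10 (adjusted p = 0.774), Il1b at 1.64 (0.785) and Ccl2 at 1.04 (0.774) on the log2 scale. These genes too were highest in the libraries left out, so smaller changes were fixed in advance, and fewer libraries make a weaker test. The type I interferon median was then 1.09 and the chemokine median 0.96. For the type I interferon list, replicates 1 and 2 had the lowest day 10 mean log2 CPM, 5.49 and 5.48, against 5.81 and 6.20 in replicates 3 and 4. A higher interferon median was therefore built in.

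**Figure D4:**
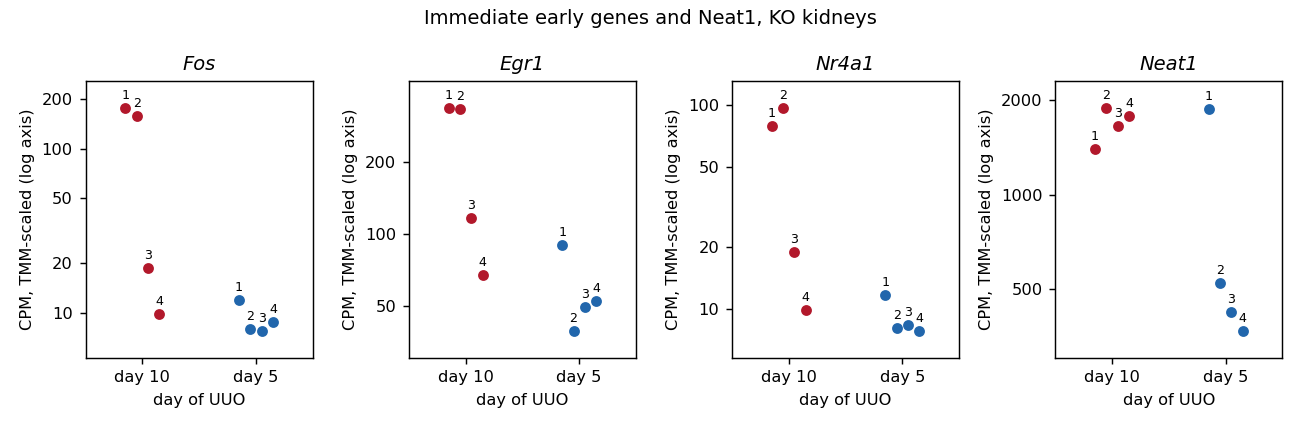
CPM (log axes) of Fos, Egr1, Nr4a1 and Neat1 in the 4 KO day 10 libraries (left) and the 4 KO day 5 libraries (right), with replicate numbers. Day 10 replicates 1 and 2 stand above all others for Fos, Egr1 and Nr4a1, and day 5 replicate 1 lies among the day 10 libraries for Neat1.

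Nuclear-retained RNAs and splicing kinases were above 0 in 13 of 13, with a median of 0.61 and 0 with groups apart. Day 5 replicate 1 lay with the day 10 libraries: Pnisr, a splicing-associated gene, was at 104, 167, 140 and 178 CPM at day 10 and at 150, 59.9, 56.2 and 49.3 CPM at day 5. Without that library the list's median was 1.15 with 12 genes at an unadjusted p under 0.05, as were 2372 of 15206 genes in either direction. The library is singled out here for its high values of these genes, so a rise was fixed in advance. In the fit without day 5 replicate 1 the type I interferon median was 0.97 and the T cell median 1.12. That library had the highest day 5 mean log2 CPM of both lists, 5.27 and 2.05, so higher medians were built in there too.

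No collagen or other matrix gene passed in the reported edgeR fit, while DESeq2 called 1 collagen, Col12a1. Col1a1, the main fibrillar collagen, was at 1094, 869, 983 and 607 CPM at day 10 and at 417, 480, 918 and 675 CPM at day 5, overlapping (0.51 ± 0.42, adjusted p = 0.625). Collagens had a median of 0.18 (15 of 20 above 0), other extracellular matrix 0.24 (18 of 24), TGF-beta pathway genes 0.18 (14 of 18) and myofibroblast and fibroblast genes 0.11 (13 of 19). These medians moved with day 5 replicate 3: without it they were 0.35 for collagens, 0.40 for other matrix and 0.23 for myofibroblast genes. Col12a1, a collagen that coats fibrils, was at 265, 411, 380 and 191 CPM at day 10 and at 137, 79.0, 155 and 140 CPM at day 5. Its groups were apart, with a log2 fold change of 1.29 ± 0.27 (adjusted p = 0.099). Col12a1 passed with DESeq2 (adjusted p = 0.0024), without WT day 10 replicates 2 and 3 and in the fit of the 12 KO libraries. Fn1, fibronectin, stood at 0.49 ± 0.37, and Tgfb1 at 0.21 ± 0.20. Col3a1 stood at 0.12 ± 0.43 and Acta2, smooth muscle actin, at -0.22 ± 0.36, and both signs depended on single day 5 libraries.

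Matrix proteases and their inhibitors had a median of 0.27, with 18 of 23 above 0, and without day 10 replicate 2 the median was 0.14. In 6 of them the unadjusted p was under 0.05, against 6.11% of all genes with day 10 higher. Mmp12, the macrophage elastase, was at 7.05, 9.91, 8.76 and 6.72 CPM at day 10 and at 1.69, 2.15, 2.89 and 1.24 CPM at day 5. Every day 10 library was above 6 CPM and every day 5 library under 3 CPM, with a log2 fold change of 2.02 ± 0.40 (adjusted p = 0.079). Mmp3, stromelysin, was at 10.2 to 17.9 CPM at day 10 and 3.06 to 7.68 CPM at day 5 (1.43 ± 0.55). Inhba, which forms activin A, was at 1.65 to 8.23 CPM at day 10 and 1.28 to 2.54 CPM at day 5 (1.55 ± 0.58).

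The tubule genes lay below 0. In the proximal tubule list 22 of 23 were lower at day 10, with a median of -0.71, but 0 had an unadjusted p under 0.05, and 1 had groups apart. Of all genes, 4.60% were lower at that p and 3.84% had day 10 below day 5, so these counts are no more than the shares. The list's mean log2 CPM was 7.95, 6.48, 6.73 and 7.93 at day 10 and 7.73, 8.22, 7.71 and 8.50 at day 5. Day 10 replicates 1 and 4 lay within the day 5 range and replicates 2 and 3 below it. Slc13a3, a dicarboxylate transporter, had 310, 93.1, 128 and 337 CPM at day 10 and 313, 417, 362 and 526 CPM at day 5, with replicate 4 alone inside the day 5 range (-0.90 ± 0.67, adjusted p = 0.592). Havcr1, the injury marker KIM-1, was at 633 to 895 CPM at day 10 and 774 to 1220 CPM at day 5 (-0.27 ± 0.24), and the tubular injury list had a median of 0.19 (15 of 20 above 0), or 0.108 without day 10 replicate 2 and 0.293 without day 10 replicate 4.

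Of the genes of later nephron segments (loop, distal tubule and collecting duct), 17 of 20 were below 0, with a median of -0.64. In 6 the groups were apart with day 10 below, against 3.84% of all genes tested. Trpm6, a member of the list, went the other way with groups apart. Its values were 23.5 to 30.8 CPM at day 10 and 13.4 to 21.6 CPM at day 5 (0.64 ± 0.20, adjusted p = 0.346). Aqp2, the vasopressin-regulated water channel, was at 71.7, 36.6, 38.1 and 58.5 CPM at day 10 and at 126, 154, 158 and 147 CPM at day 5. No day 10 library reached the day 5 range, and the log2 fold change was -1.51 ± 0.68 (adjusted p = 0.446). Aqp4, the basolateral water channel of the collecting duct, was at 10.7, 11.3, 13.6 and 9.96 CPM at day 10 and at 25.9, 23.1, 86.6 and 15.7 CPM at day 5 (-1.73 ± 0.48, adjusted p = 0.269). Elf5, an epithelial transcription factor outside this list, was at 1.42 to 2.47 CPM at day 10 and 2.60 to 15.5 CPM at day 5 (-1.98 ± 0.52). Day 5 replicate 3 held the highest value of Aqp4 and Elf5.

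Genes of mitochondrial energy use were below 0 throughout: 20 of 20 in the respiratory chain list, with a median of -0.45, and 20 of 20 in the fatty acid oxidation list, with a median of -0.40. At an unadjusted p under 0.05 there were 6 and 0 of them, where 4.60% of all genes were lower, and 0 passed the adjusted threshold. Cox5a, a subunit of cytochrome c oxidase, was at 164, 117, 129 and 170 CPM at day 10 and at 224, 240, 192 and 175 CPM at day 5. The groups were apart by a narrow margin (-0.52 ± 0.16, adjusted p = 0.346). Under the other scalings and filters and the other tools, the sign of all 40 genes held. Leaving libraries out moved at most 1 respiratory chain gene above 0.

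**Figure D5:**
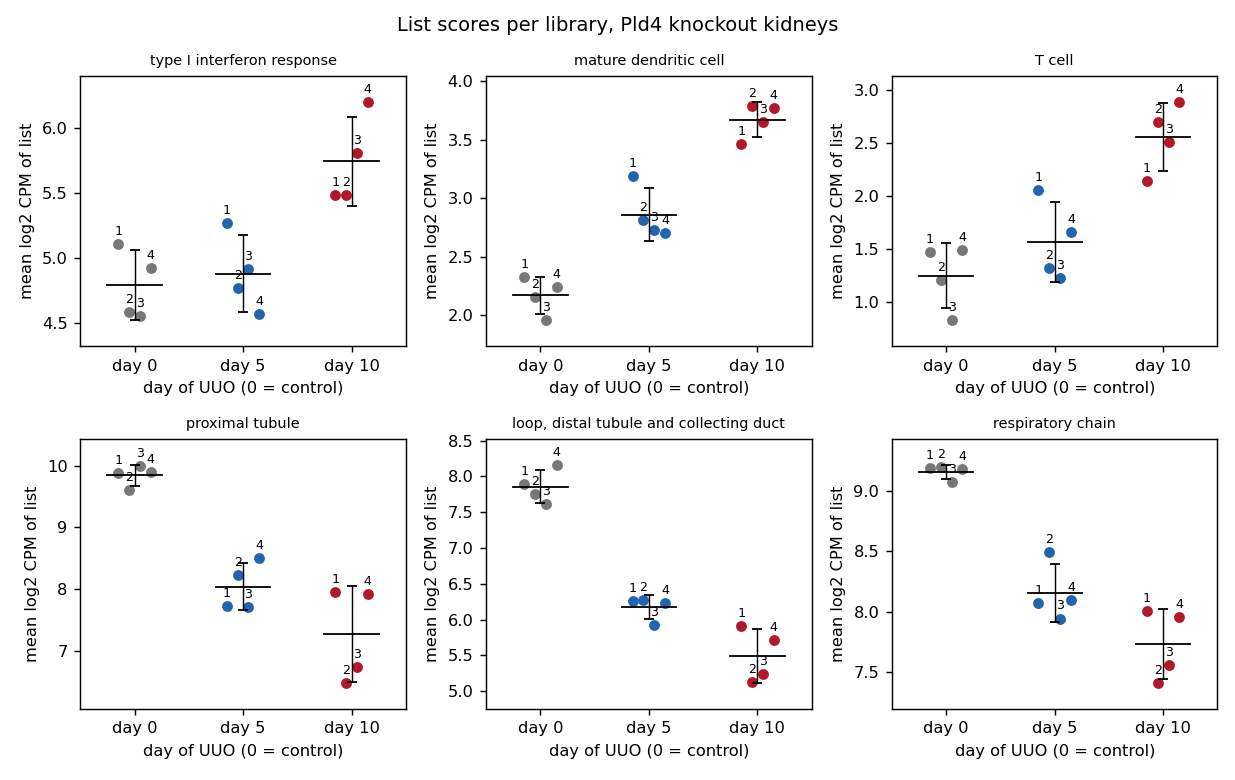
Mean log2 CPM of 6 gene lists in each KO library at day 0, 5 and 10, with replicate numbers; lines are group means and bars the SD (n = 4). Type I interferon, mature dendritic cell and T cell scores are higher in every day 10 library than in any day 5 library, proximal tubule and respiratory chain scores overlap between day 10 and day 5, and all 3 epithelial and mitochondrial scores are highest at day 0.

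The remaining lists had 0 adjusted calls, and all their medians but the erythroid one changed by over 1.5 times or in sign with 1 KO day 10 or day 5 library left out. Cell cycle genes had a median of -0.03 (10 of 21 above 0), endothelial genes -0.18 (2 of 14), podocyte genes 0.17 (6 of 10), urothelial genes -0.06 (5 of 13), circadian clock genes 0.14 (10 of 16; -0.059 without day 10 replicate 4), the phospholipase D family 0.14 (4 of 5) and sex-linked genes 0.04 (2 of 4). Adipocyte, skeletal muscle, adrenal and erythroid markers had 3, 2, 2 and 2 genes tested, with medians of -0.64, 0.44, -0.01 and -0.83. The adipocyte marker Plin1 had 0 counts at day 10 and 1 at day 5, and the muscle marker Ckm 4 and 1.

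In WT kidneys the day 10 and day 5 ranges of Calcr and Ccr7 did not overlap either, and day 10 was the higher. Calcr was at 2.60 to 4.46 CPM at WT day 10 and 0.591 to 1.78 CPM at WT day 5, Ccr7 at 4.17 to 6.29 and 1.77 to 2.97 CPM, and Il12b at 0.203 to 1.09 and 0.0909 to 0.207 CPM. The KO change minus the WT change was 1.09 ± 0.47 for Calcr, 0.95 ± 0.40 for Ccr7 and 0.53 ± 0.79 for Il12b on the log2 scale (adjusted p = 0.540, 0.528 and 0.852 for the interaction). Over all genes, 0 interactions passed the adjusted threshold with edgeR, 1277 had an unadjusted p under 0.05 (8.47%), and DESeq2 called 40, all with the lower change in KO. The median KO change minus WT change was -6.91 for neutrophil genes (8 of 9 at an unadjusted p under 0.05), -1.71 for chemokines and cytokines (12 of 24) and -0.87 for macrophage genes (13 of 22). It was 0.49 for type I interferon genes (6 of 30), whose WT median was 0.31, and -0.26 without WT day 10 replicates 2 and 3. Without those 2 libraries the WT medians were 0.54 for neutrophil, 0.41 for chemokine and 0.25 for macrophage genes, against 6.59, 3.09 and 1.29 with them. Across the 15080 genes, which are not independent replicates, the KO and WT fold changes had a Pearson correlation of 0.471 and the same sign in 68.3%.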

How the data were processed

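RNA of 24 mouse kidney libraries was measured; per the labels' protocols, total RNA went into stranded mRNA libraries. Per the submitters' processing notes, bcl2fastq 2.16, STAR 2.5, Cufflinks and mm9 were used; the counting tool, its annotation and its use of strand are not given in the sources used here, so overlapping, antisense and near-identical genes are uncertain. The authors deposited raw counts per gene and FPKM per gene, and 0 value columns lacked a sample. Every test ran on the counts, unless FPKM is named, in R 4.3.3. A filter on low counts (filterByExpr of edgeR 4.0.16, minimum count 10, minimum total 15) and TMM scaling came first, then edgeR's robust quasi-likelihood fit of the 24 libraries, 1 mean for each of 6 groups (18 residual degrees of freedom), with Benjamini-Hochberg adjustment at 0.05, two-sided. An SE is the fold change divided by the square root of F. CPM is a count per 1000000 of the total count times the TMM factor. The depth limits low genes most: a gene at 1 CPM has few counts, and sums of counts hold counting error only.

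Named genes are those past 0.05; Pld4, Havcr1, Tgfb1, Fn1, Acta2, Col1a1 and Col3a1; up to 10 each way with the largest fold change, groups apart, a mean log2 CPM of at least 1 and no placeholder symbol; and up to 3 per list by unadjusted p. Not all of these 97 are printed. Isg15, Ifit1, S100a8, Ckm, Plin1, Slc34a1, Xist and Ddx3y were chosen after values were seen. The members, the 37 lists and the tests were chosen with earlier results of these data known. List scores are mean log2 CPM (prior count 2). Replicate numbers did not pair the libraries: same-number correlations between day 10 and day 5 were -0.36 to 0.12, 1 of 4 over 0.1. Alternatives were RLE factors, other filters, DESeq2 1.42.0, limma 3.58.1 on log2(FPKM + 1) and log2(FPKM + 0.1), a replicate block, fewer groups, and libraries left out. The procedure was tested on simulated data.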

Additional observations from a re-analysis of the deposited data

Results flagged for a closer look

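A single library lay far from the other 3 of its group in 15 of 194 groups, 2 for each of 97 named genes. Chance gives about 1 in 20 for independent, normally distributed values. These genes vary together and many were picked from this contrast, so the share cannot be set against chance. KO day 5 replicate 1 was the far library in 7 of the 15 groups. It was the high one for Neat1 (1874 CPM), Pnisr (150 CPM), Nr4a1 (11.6 CPM), Gbp8 (23.6 CPM), Gbp3 (125 CPM), Ccl22 (3.50 CPM) and Pvalb (1.75 CPM). At day 10 the far libraries were replicate 4 for Il12b (5.29 CPM) and the NK receptor Klrk1 (12.1 CPM), replicate 3 for Mmp3 (17.9 CPM) and replicate 1 for the fatty acid oxidation gene Acaa2 (114 CPM). At day 5 they were replicate 2 for Il1b (6.07 CPM), replicate 3 for Aqp4 (86.6 CPM), and replicate 4 for Rgs16 (3.06 CPM, low) and for Cpt2 (152 CPM). No cause was tested.

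Serpina6, which encodes corticosteroid-binding globulin, had day 10 values below day 5 in KO and above day 5 in WT: 0.236 to 4.10 CPM at KO day 10 and 4.78 to 7.36 CPM at KO day 5, against 0.605 to 1.59 CPM at WT day 10 and 0.207 to 0.500 CPM at WT day 5. The KO change minus the WT change was -2.65 on the log2 scale and missed the threshold in edgeR's interaction test (adjusted p = 0.508).

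Outside the comparison, KO day 0 replicate 4 had 11271 counts of Xist, against 0 to 8 in the other 23 libraries. Its Ddx3y was at 0.390 CPM, against 58.0 to 98.9 CPM in the others. By these genes it reads as female and the others as male, so the KO day 0 ranges mix both. KO day 0 replicate 4 is no library of the day 10 or day 5 groups, but it enters the shared spread and the day 0 ranges and scores. Leaving it out gave 4 calls in place of 3. It sets the day 0 maximum of Calcr (1.48 CPM, against 0.457 to 0.687 CPM in the other 3) and the day 0 minimum of Ccr7 (2.34 CPM) and Pld4 (6.70 CPM).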

How the results depend on the processing

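The 3 calls between KO day 10 and KO day 5 were also 3 with RLE factors, with no low-count filter and with a CPM filter, and 2 with limma on log2(FPKM + 0.1), where Calcr and Il12b were filtered out. The count was 72 with DESeq2 (61 higher, 11 lower), 5 with limma on log2(FPKM + 1), 15 with that and no filter, 54 without WT day 10 replicates 2 and 3 (47 higher, 7 lower), 53 in the 12 KO libraries (45 higher, 8 lower) and 9 in the 8 KO UUO libraries (8 higher, 1 lower). The replicate block, which the data do not support as a pairing, gave 4. Leaving out 1 library gave 0 to 12: 0 without KO day 5 replicate 4 (1332 at an unadjusted p under 0.05), 5 without KO day 5 replicate 3 and 12 without KO day 10 replicate 4. Settings added after the data were seen gave 2 without KO day 10 replicates 1 and 2, 4 without KO day 0 replicate 4, and 13 without KO day 10 replicate 1 and KO day 5 replicate 1. The interaction, 0 in the reported fit, was 40 with DESeq2, all with the lower change in KO, and 0 to 227 with 1 library left out: 227 without WT day 10 replicate 4, 169 without WT day 10 replicate 1 and 1 without KO day 5 replicate 1. It was 1 without KO day 10 replicate 1 and KO day 5 replicate 1. Pld4 (0.88) stood at 0.69 to 1.20 with 1 library left out and passed at 1.36 (adjusted p = 0.0489) without those 2. With 1 library left out Col3a1 (0.12) ran from -0.042 without KO day 5 replicate 1 to 0.36 without KO day 5 replicate 3, and Acta2 (-0.22) from -0.39 without KO day 5 replicate 1 to 0.23 without KO day 5 replicate 3. Col3a1 stood at -0.030 without KO day 5 replicate 1 and KO day 10 replicate 1. Of 2090 values of the other 96 named genes under alternatives, 2020 kept their sign and side of the threshold, 61 passed only there, 6 lost the threshold and 3 changed sign. The causes were not tested, beyond fewer libraries or genes by construction.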

Other observations

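The 3 settings with the most calls, DESeq2, the fit without WT day 10 replicates 2 and 3 and the fit of the 12 KO libraries, share data with each other and with the reported fit. They called 111 genes in any and 23 in all, 21 higher at day 10 and 2 lower. Only Calcr, Ccr7 and Il12b of these 23 passed in the reported fit, and the genes below were chosen after their values were seen. Stra6, the membrane receptor for retinol-binding protein, was at 71.1, 72.7, 55.7 and 47.8 CPM at KO day 10 and at 23.4, 19.5, 16.6 and 28.6 CPM at KO day 5. Its groups were apart, and KO day 0 libraries held 1.45 to 5.69 CPM. Pamr1, a secreted protein with a protease-like domain, was at 62.6, 56.4, 61.7 and 50.3 CPM at KO day 10 and at 28.6, 28.1, 25.7 and 30.4 CPM at KO day 5.

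Other genes of the 23 follow. Mgl2, a C-type lectin, was at 22.9, 31.6, 25.1 and 16.5 CPM at KO day 10 and at 11.5, 8.83, 10.2 and 6.17 CPM at KO day 5. Dcstamp, which cell fusion of osteoclasts and giant cells needs, was at 0.823 to 1.14 CPM at KO day 10 and 0 to 0.177 CPM at KO day 5. Retnla, a marker of alternatively activated macrophages, was at 0.797 to 1.56 CPM at KO day 10 and 0 to 0.0583 CPM at KO day 5. Dcstamp and Retnla lay near the floor, and Retnla had an adjusted p of 0.338 in the reported fit. The lower genes, Gm12338 and Oaz1, were low too. Gm12338 was at 0.176 to 0.626 CPM at KO day 10 and 0.886 to 1.98 CPM at KO day 5, and Oaz1 at 0.108 to 0.294 and 0.531 to 1.69 CPM. Cldn3, a tight junction claudin, was at 45.4 to 53.4 CPM at KO day 10 and 20.4 to 32.8 CPM at KO day 5. Klf4, a transcription factor, was at 41.4 and 49.2 CPM in KO day 10 replicates 1 and 2 and at 30.8 and 26.1 CPM in replicates 3 and 4, against 17.3 to 24.7 CPM at KO day 5.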
